A study of Mus musculus with 4 samples.

Results

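Semaphorins are secreted or membrane-bound guidance proteins that steer axons, and plexins are the receptors that read them. The family was followed here as 31 genes, taken by name from the RefSeq annotation of the count files: 20 semaphorin ligands of classes 3 to 7, the 2 neuropilins and the 9 plexins. These are 31 of 21822 gene units in the files, and all 31 were found. Of them 30 had enough counts to be tested, and Plxnb3 was left out by the filter on low counts.

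Plexins carry a cytoplasmic domain that acts on small GTPases and thereby on the cytoskeleton of the growth cone. Most secreted class 3 semaphorins do not bind plexins alone and need a neuropilin as the ligand-binding subunit, with class A plexins or plexin D1 as the signalling subunit. Class 4, 5, 6 and 7 semaphorins are held at the cell surface and bind plexins directly. In the spinal cord, motor axons carry neuropilins and class A plexins, and semaphorins of the limb and of the motor neurons themselves shape where these axons exit, branch and bundle.

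The RNA came from aggregates of iMN-ESCs, C57BL/6 mouse embryonic stem cells in which doxycycline (Dox) turns on a fusion of the motor neuron transcription factors Isl1 and Lhx3. All 4 libraries came from aggregates grown for 2 days in stem cell medium with LIF and then for 2 days with all-trans retinoic acid at 0.5 µM, a signal that drives neural differentiation. Retinoic acid was kept for another 2 to 3 days, in the no Dox group alone (2 libraries) and in the Dox group with 2 µg/mL Dox (2 libraries), and the comparison asks which genes change when the fusion is induced. Cells given Dox but lacking the fusion are not analysed here, and effects of the drug and of the fusion cannot be told apart. Whether the line is 1 clone is not stated in the labels. The labels call the libraries biological duplicates but do not say what was replicated, so p-values measure the spread between these libraries only.

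Counts over genes summed to between 24020832 and 53903936 per library. Levels are given as CPM, counts per 1000000 counts of a library after TMM scaling, and changes as log2 fold changes of Dox over no Dox with their standard error (SE) and a Benjamini-Hochberg adjusted p over all genes, from the quasi-likelihood test in edgeR. Lhx3 stood at 0.404 and 0.286 CPM in the no Dox libraries against 124.6 and 107.8 CPM in the Dox libraries, and Isl1 at 3.08 and 5.84 CPM against 104.1 and 82.4 CPM, so both followed the labels. All 9 motor neuron markers on a list of markers rose, where 1.23% of all genes tested did, and their summed level moved from 92.7 and 66.6 CPM to 1791 and 1610 CPM. Slit2 made up most of these sums, its level moving from 84.1 and 56.5 CPM to 1267 and 1048 CPM. Isl1 and Lhx3, the factors of the induced fusion, are among the 9, so their rise is no separate sign of motor neurons. The list was also chosen with earlier results of these data known, so the count of 9 is no independent test. Reads from the transgene and from the endogenous Isl1 and Lhx3 genes cannot be told apart in these counts. Markers of other cells were also present. Those of primitive, parietal and visceral endoderm summed to 48410 to 55540 CPM over the 4 libraries, with 0 of 14 called. Most of that sum was Col4a1, at 22240 to 24700 CPM, and Lama1, Lamb1 and Sparc, at 6399 to 11070 CPM. Of the others, Gata4 was at 553 to 644 CPM and Sox17 at 86.0 to 109 CPM, while Afp, Ttr and Amn lay between 0.571 and 7.70 CPM. Neural progenitor markers summed to 1361 and 1158 CPM (no Dox) and 1122 and 883 CPM (Dox), with 0 of 7 called. Most of the progenitor sum was Vim, and the other progenitor markers summed to 588 and 475 CPM against 370.4 and 250.2 CPM with Dox. Both Dox libraries lay below both others for 6 of the 7, against 19.9% of all genes tested. In edgeR 5 of the 7 were lower at an unadjusted p under 0.05, against 4.02% of all genes. Of 11 pan-neuronal markers 2 rose, Nefm and Ncam1, against 1.23% of all genes tested. Both Dox libraries lay above both others for 3 of the 11 and below both for 6, against 18.9% and 19.9% of all genes. The 11 summed to 868 and 662 CPM (no Dox) and 1601 and 1315 CPM (Dox). Nefl, which was not called, was the largest part of the Dox sums, at 277 and 166 CPM against 900 and 659 CPM with Dox. In such bulk samples, fewer cells of a type and less RNA per cell cannot be told apart.

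The largest changes of the family were those of the receptor Nrp1 and the ligand Sema3d. Sema3d lies on chromosome 5 beside Sema3a, which rose, and Sema3e, which was not called. The bases before the RefSeq start of Nrp1, Sema3d and Sema3e are shown so that the region upstream of the 2 genes with the largest changes can be set beside that of a neighbour without a call. Each is the 250 bases 5′ of the start on the plus strand of GRCm38.p6, as RefSeq gives it: chr8:128358823-128359072 for Nrp1, chr5:12382916-12383165 for Sema3d and chr5:14025026-14025275 for Sema3e. The counted transcripts begin 211 bases (Nrp1), 219 bases (Sema3d) and 0 bases (Sema3e) from these starts in GENCODE M21. Capitals mark TAAT on either strand, the core that homeodomain proteins such as Isl1 and Lhx3 bind.
Nrp1: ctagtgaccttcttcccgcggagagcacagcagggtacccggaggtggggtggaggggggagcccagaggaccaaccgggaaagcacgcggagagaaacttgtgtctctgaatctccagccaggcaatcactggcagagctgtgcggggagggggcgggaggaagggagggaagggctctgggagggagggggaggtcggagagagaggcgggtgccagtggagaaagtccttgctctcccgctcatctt
Sema3d: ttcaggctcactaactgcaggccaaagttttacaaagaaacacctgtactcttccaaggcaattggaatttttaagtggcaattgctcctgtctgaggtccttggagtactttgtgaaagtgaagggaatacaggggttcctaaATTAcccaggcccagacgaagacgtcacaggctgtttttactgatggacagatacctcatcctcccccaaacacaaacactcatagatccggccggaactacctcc
Sema3e: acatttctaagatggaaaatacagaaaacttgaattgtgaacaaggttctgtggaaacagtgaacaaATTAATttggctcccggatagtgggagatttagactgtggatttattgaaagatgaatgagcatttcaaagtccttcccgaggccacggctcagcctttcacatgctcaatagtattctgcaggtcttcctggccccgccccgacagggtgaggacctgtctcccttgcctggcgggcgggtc

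TAAT was not found in the Nrp1 window, was found 1 time in that of Sema3d and 2 times in that of Sema3e. The palindrome TAATTA, in which 2 TAAT cores overlap, was in none of the 37 windows that the table holds for 26 of the members, against 4.84% of 32851 windows of all genes. CAGATG, an E-box read on both strands and bound by neurogenic bHLH factors, was in 2 of the 37 windows, against 14.4% of all windows, and TAAT in 14 of 37, against 54.9%. The called members Sema6a and Plxna4 had no window, and some windows lay far from the counted start, as for Sema6d (43008 and 520327 bases). The GC content of the 37 windows ran from 40.8% to 78.4%, and its part in these shares was not tested. These are matches of letters in 250 bases and show no binding.

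Of the 30 genes tested, 5 rose with Dox and 0 fell at an adjusted p under 0.05 in edgeR. They were the receptors Nrp1 and Plxna4 and the ligands Sema3d, Sema3a and Sema6a. That is 16.7% of the tested members, against 1.23% of all 14283 genes tested that rose and 0.056% that fell. At an unadjusted p under 0.05, 10 members were higher and 2 lower, where 6.26% and 4.02% of all genes were. DESeq2 called 8 members higher, with Sema3b, Sema3f and Plxnd1 added to the 5, and 1 lower, Sema5b, where it called 2.82% of all genes higher and 0.812% lower. Both Dox libraries lay above both others in 15 members and below both in 3 (Sema3g, Sema5b and Plxnc1), against 18.9% and 19.9% of all genes. The median log2 fold change was 0.27 over the 20 ligands and 0.11 over the 10 tested receptors, beside -0.01 over all genes. The receptor median turned to -0.09 when no Dox replicate 2 was dropped and to -0.08 when Dox replicate 1 was, so its sign rested on single libraries.

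**Figure D1:**
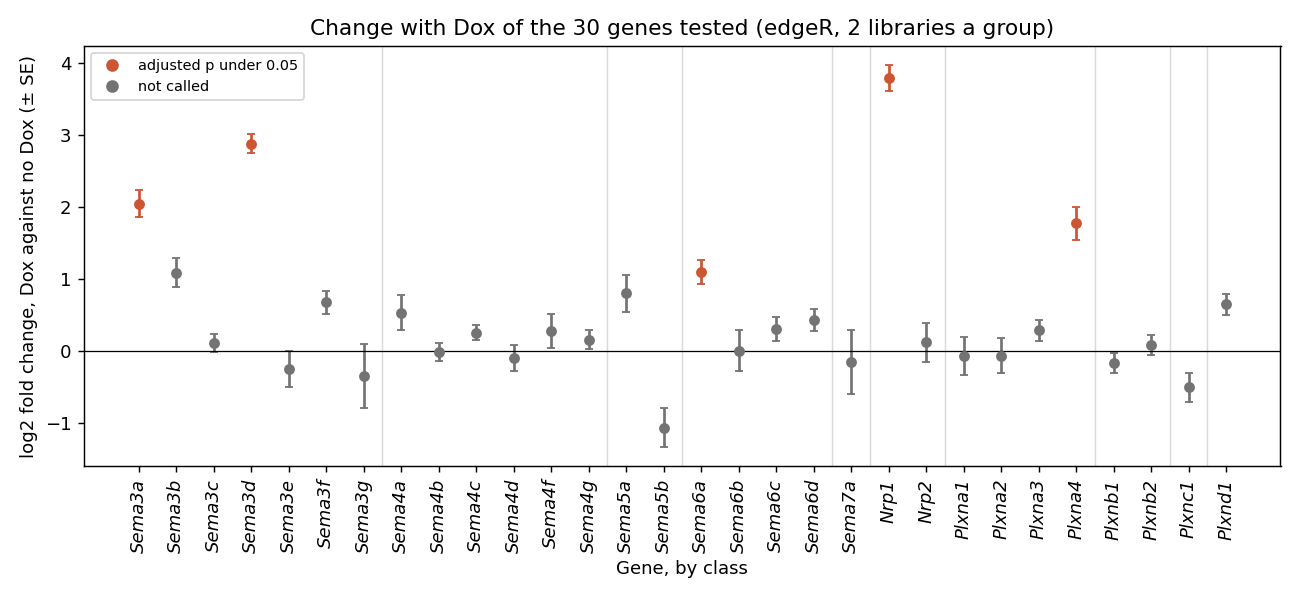
Log2 fold change with Dox against no Dox for each of the 30 genes tested, with bars of 1 SE, grouped by class along the horizontal axis. Nrp1 at 3.79, Sema3d at 2.88, Sema3a at 2.05, Plxna4 at 1.78 and Sema6a at 1.10 are called, and most other genes lie within 1 unit of 0.

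The class 3 semaphorins, the secreted ligands, had 2 called members of 7, both higher with Dox, where 1.23% of all genes tested rose. Sema3d, a ligand known from axon and neural crest guidance, was at 15.0 and 15.5 CPM in the no Dox libraries against 121 and 104 CPM in the Dox libraries. The groups were far apart, with a 7.38-fold difference (log2 2.88, SE 0.13, adjusted p = 0.000967), rank 97 of all genes tested by log2 fold change. Sema3a, the classic growth cone-collapsing ligand of Nrp1, was at 11.8 and 16.3 CPM (no Dox) and 56.1 and 59.9 CPM (Dox). The groups did not overlap, and the rise was 4.14-fold (log2 2.05, SE 0.18, adjusted p = 0.00743).

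Of the other class 3 ligands, 3 sat higher in both Dox libraries without a call in edgeR: Sema3b, Sema3f and, by a margin of under 1 CPM, Sema3c. Both Dox libraries lay above both others for 18.9% of all genes tested. Sema3b, a ligand that acts through Nrp2, stood at 7.38 and 5.55 CPM in the no Dox libraries against 13.3 and 14.3 CPM in the Dox libraries (log2 1.09, SE 0.21, adjusted p = 0.0889). Its adjusted p was 0.0187 without no Dox replicate 1. In this and each later value with a library left out, 1 group holds a single library that is assumed to vary like the pair of the other group. Sema3f, the main Nrp2 ligand, stood at 15.2 and 18.8 CPM against 27.2 and 27.1 CPM (log2 0.68, SE 0.16, adjusted p = 0.158), and at an adjusted p of 0.0451 without no Dox replicate 2. Sema3b and Sema3f did not meet the threshold in the main edgeR fit of all 4 libraries. Both did in DESeq2 (adjusted p = 0.000975 for Sema3b and 0.0254 for Sema3f). Other edgeR settings with all 4 libraries also called Sema3b with no filter on low counts, and both genes with a block for replicate number. Sema3c, an attractant for some axons and for neural crest, differed little, at 25.9 and 28.6 CPM against 29.7 and 29.3 CPM (adjusted p = 0.88). Sema3e, which binds Plxnd1 without a neuropilin, was at 7.93 and 5.39 CPM (no Dox) and 5.72 and 5.49 CPM (Dox), and the groups overlapped. Sema3g was very low, with 24 counts in the no Dox libraries together and 34 in the Dox libraries, a ratio of 0.797 in CPM with an exact 95% counting interval of 0.459 to 1.40, which leaves out the spread between libraries.

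The make-up of the class shifted with these changes. To compare genes, CPM were divided by the annotated exon length in kb. The summed level of the 7 class 3 genes was 17.1 and 18.5 CPM per kb without Dox and 47.0 and 45.2 CPM per kb with it. Sema3c and Sema3f were the largest contributors without Dox, at 27.7% and 28.2% and at 26.3% and 29.9% of the sum. With Dox, Sema3d held 40.9% and 36.6% of it, up from 14.0% and 13.3%, and Sema3a 20.1% and 22.4%, up from 11.7% and 14.8%. Sema3c then held 11.5% and 11.8%, a smaller share at nearly the same level.

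Several class 3 genes lie close together. On chromosome 5 Sema3d and Sema3a are adjacent protein-coding genes in the RefSeq order of GRCm38.p6, 3 genes (Gm6647, Speer3 and Gm6650) separate Sema3a from Sema3e, and Pclo, which encodes a presynaptic scaffold, comes next. Pclo stood at 16.9 and 10.7 CPM in the no Dox libraries against 12.4 and 8.33 CPM in the Dox libraries (log2 -0.42, SE 0.30, adjusted p = 0.759). Of the stretch from Sema3d to Sema3c, with 22 protein-coding genes, 6 were tested, and the 2 at one end were called. On chromosome 9 Sema3b and Sema3f are separated by 3 genes. One of them, Gnai2, which encodes a G protein subunit, was at 440.9 and 417.6 CPM with no Dox, against 414 and 382.4 CPM with Dox (log2 -0.11, adjusted p = 0.876).

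Among membrane-bound ligands, 1 of 13 rose, against 1.23% of all genes tested. Sema6a, a class 6 ligand that can also signal as a receptor and is known to keep motor neuron cell bodies inside the spinal cord, stood at 60.8 and 81.4 CPM in the no Dox libraries against 144 and 160 CPM in the Dox libraries. The groups did not overlap (2.14-fold, log2 1.10, SE 0.17, adjusted p = 0.0482). This call was at the edge of the threshold. Its adjusted p was 0.0911 when a gene was represented by its largest part and 0.0778 with the 3′ terminal part of each gene left out, at log2 1.20 and 1.01. Sema6d, which binds Plxna1, was at 80.8 and 103.6 CPM with no Dox, against 118 and 131 CPM with Dox (log2 0.43, SE 0.15, adjusted p = 0.388, unadjusted p = 0.0302). Sema6c was at 41.4 and 36.1 CPM in the no Dox libraries against 54.5 and 41.8 CPM in the Dox libraries, and the groups came within 1 CPM of each other. Sema6b ranged from 5.88 to 9.91 CPM over the 4 libraries, and the groups overlapped.

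None of the 6 class 4 ligands was called. This class binds B plexins and has roles in the nervous and immune systems. Sema4c, a ligand of Plxnb2, was the most abundant semaphorin per kb in all 4 libraries. It stood at 110 and 108 CPM with no Dox, against 126 and 134 CPM with Dox (log2 0.26, SE 0.11, adjusted p = 0.498). Sema4g, another Plxnb2 ligand, overlapped between groups at 84.3 to 109 CPM. Sema4d, the ligand of Plxnb1, ranged from 31.2 to 41.4 CPM and Sema4b from 33.5 to 36.9 CPM, both with overlap. Sema4a stood at 2.31 and 2.29 CPM in the no Dox libraries against 3.40 and 3.28 CPM in the Dox libraries (adjusted p = 0.54), and Sema4f lay between 3.75 and 5.62 CPM. The 6 log2 fold changes ran from -0.10 to 0.54.

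The 2 class 5 genes, ligands with thrombospondin repeats that can attract or repel axons, lay on opposite sides of 0. Sema5b was at 74.0 and 48.5 CPM (no Dox) and 35.2 and 23.6 CPM (Dox). Both Dox libraries were below both others (log2 -1.06, SE 0.27, unadjusted p = 0.0074, adjusted p = 0.195), which was the lowest value among the members and was not called. On the log2 scale the replicates of each group were further apart than no Dox replicate 2 was from Dox replicate 1. Leaving out no Dox replicate 2 gave an adjusted p of 0.0333, and leaving out Dox replicate 1 gave 0.00131. The values were 0.281 and 0.143 when no Dox replicate 1 or Dox replicate 2 was dropped. Sema5a was at 16.2 and 9.51 CPM in the no Dox libraries against 21.0 and 23.8 CPM in the Dox libraries (log2 0.80, SE 0.26, adjusted p = 0.334). Without no Dox replicate 1 its value was 1.24 (adjusted p = 0.0116), so the size of the difference depended on that library. Sema7a, the GPI-anchored ligand of Plxnc1 and of integrins, was low, at 3.45 and 1.43 CPM against 2.51 and 1.92 CPM, with overlapping groups (log2 -0.15, SE 0.44, adjusted p = 0.975).

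**Figure D2:**
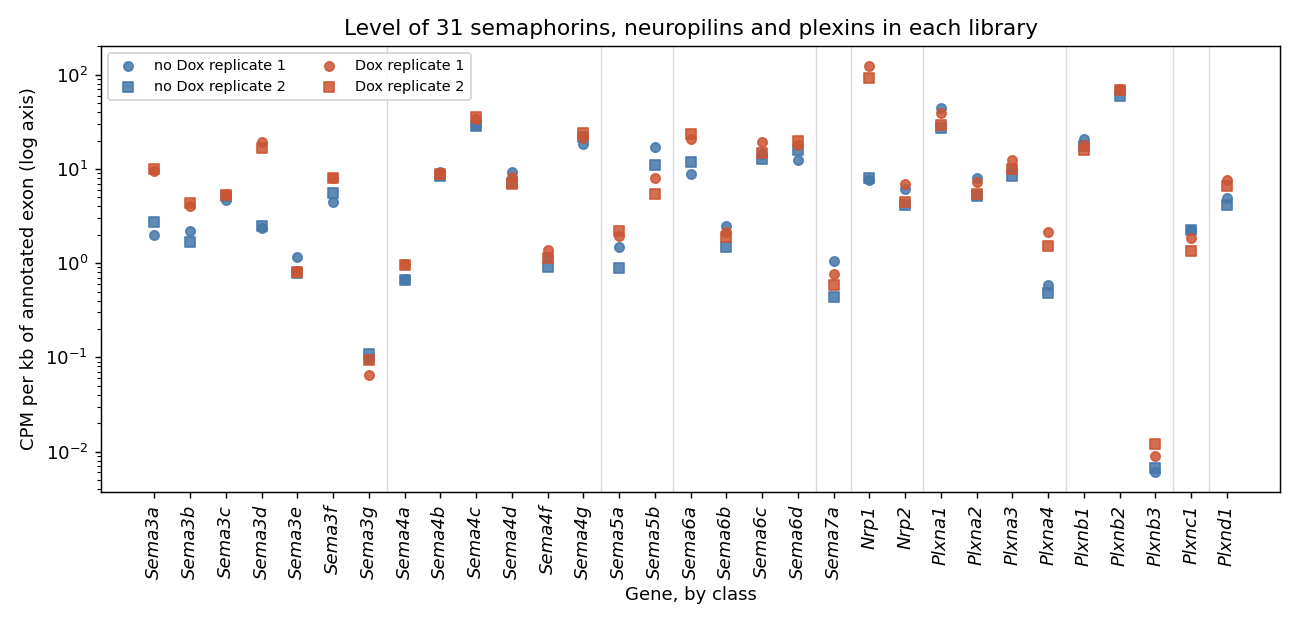
Level of all 31 genes in each of the 4 libraries, in CPM per kb of annotated exon on a log axis, with circles for replicate 1, squares for replicate 2, blue for no Dox and orange for Dox. Nrp1 moves from about the middle of the family to its top, with 123 and 93.2 CPM per kb in the Dox libraries, while Plxnb2 and Plxna1 are high in all 4.

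Of the 2 neuropilins, Nrp1 rose and Nrp2 was not called. Nrp1, the receptor subunit for Sema3a and a co-receptor for VEGF, stood at 27.7 and 29.1 CPM (no Dox) and 448.5 and 339 CPM (Dox). The Dox libraries lay an order of magnitude above the others (13.9-fold, log2 3.79, SE 0.18, adjusted p = 0.000967), rank 59 of 14283 genes by log2 fold change. Nrp2, the receptor subunit for Sema3f, stood at 64.2 and 43.2 CPM in the no Dox libraries against 71.2 and 45.8 CPM in the Dox libraries. These groups overlapped (log2 0.12, SE 0.27, adjusted p = 0.962), and the difference between replicates exceeded that between groups. Per kb, Nrp1 made up 55.2% and 65.8% of the neuropilin level without Dox and 94.7% and 95.5% with it. Taking the longest annotated transcript as the length, which was done after seeing the data, gave 44.6% and 55.7% without Dox and 92.2% and 93.3% with it. The difference between the 2 log2 fold changes was not tested.

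Nrp1 is also made by endothelial and mesenchymal cells, so their markers are given beside it. Endothelial markers summed to 65.6 and 94.5 CPM (no Dox) and 69.4 and 102 CPM (Dox). Of 8 tested 1 rose, against 1.23% of all genes: Erg, from 0.0734 and 0.163 CPM to 1.90 and 2.67 CPM. Cdh5, the endothelial cadherin, was at 10.9 and 24.5 CPM in the no Dox libraries against 12.04 and 24.3 CPM in the Dox libraries, and Pecam1 lay below 1 CPM in all 4 libraries. Of the 8, 3 (Erg, Kdr and Vwf) had both Dox libraries above both others, as did 18.9% of all genes tested. Mesenchymal and fibroblast markers summed to 520.7 and 490 CPM (no Dox) and 580 and 553 CPM (Dox), and most of the sum was Pdgfra, which was not called. The other markers of this list summed to 54.1 and 65.3 CPM against 190 and 161 CPM with Dox. Of 8 tested 3 rose, against 1.23% of all genes: Col1a1 from a mean of 7.21 to 28.9 CPM, Col3a1 from 14.3 to 67.7 CPM and Prrx1 from 3.12 to 30.2 CPM. Both Dox libraries lay above both others for 5 of the 8 and below both for 2, against 18.9% and 19.9% of all genes. The 2 lower were Pdgfra and Acta2, the latter at 1.73 and 0.612 CPM against 0.482 and 0.421 CPM with Dox. Neural crest markers summed to 115 and 103 CPM in the no Dox libraries against 68.0 and 60.9 CPM in the Dox libraries, with 0 of 5 called. The part of any of these cells in the rise of Nrp1, Sema3d or Sema3a was not tested.

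The class A plexins, partners of the neuropilins, had 1 called member of 4, where 1.23% of all genes tested rose. It was the one with the lowest level per kb in all 4 libraries. Plxna4, through which Sema3a and Sema6a act on many axons, stood at 7.56 and 6.20 CPM (no Dox) and 27.6 and 19.7 CPM (Dox). The groups did not overlap (3.43-fold, log2 1.78, SE 0.23, adjusted p = 0.0266). With the 3′ terminal part of each gene left out, a setting added once the data had been seen, the log2 fold change was 1.83 with no call (adjusted p = 0.398). The remaining parts of Plxna4 held 121 and 35 counts without Dox (4.44 and 1.43 CPM) and 525 and 386 with it (14.0 and 7.07 CPM), so the groups stayed apart but the replicates differed more. Per kb Plxna4 made up 0.929% and 1.17% of the summed class A level without Dox and 3.50% and 3.33% with it.

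Plxna1 was the main class A plexin, with 63.2% to 70.6% of the class per kb in the 4 libraries. It stood at 403 and 246 CPM in the no Dox libraries against 356 and 263 CPM in the Dox libraries (log2 -0.07, SE 0.27, adjusted p = 0.983). The 2 libraries of each group were further apart than the group means. Plxna2, a receptor for Sema6a, showed the same overlap, at 89.1 and 56.6 CPM against 80.1 and 59.7 CPM (adjusted p = 0.985). Plxna3, the partner of Nrp2 for Sema3f, was at 68.7 and 58.8 CPM (no Dox) and 86.1 and 69.6 CPM (Dox), with a margin of less than 1 CPM between the groups (log2 0.29, SE 0.15, adjusted p = 0.633).

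**Figure D3:**
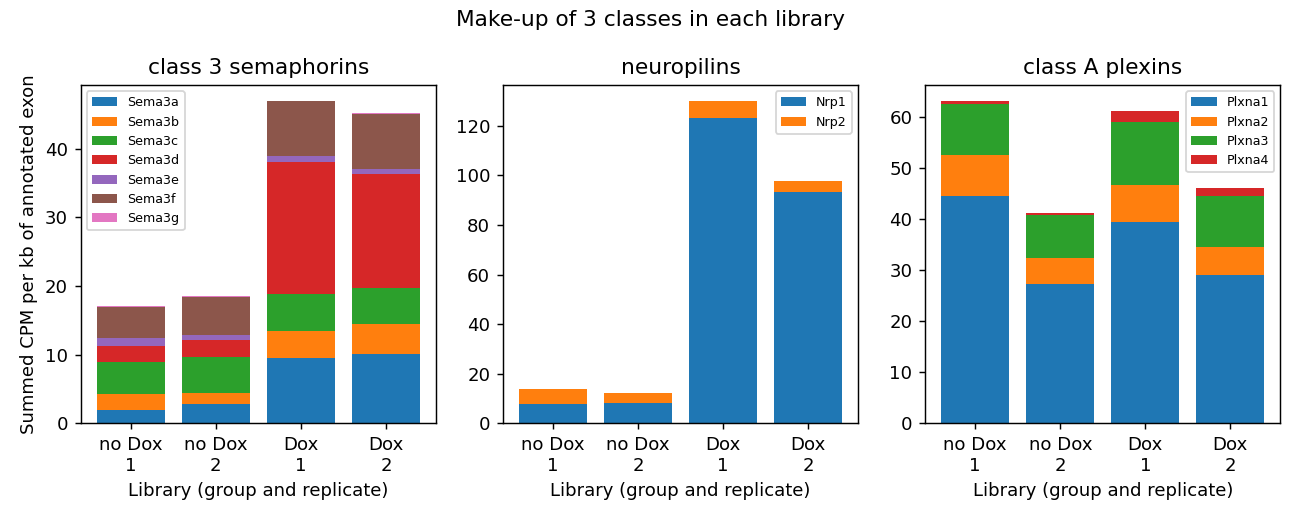
Stacked levels of the class 3 semaphorins, neuropilins and class A plexins in each library, as summed CPM per kb of annotated exon. The class 3 sum goes from 17.1 and 18.5 to 47.0 and 45.2 with Dox and the neuropilin sum from 13.8 and 12.2 to 130 and 97.7, while the class A plexin sum runs from 41.3 to 63.2 with overlapping groups.

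Of the B, C and D plexins edgeR called none. Plxnb2, a receptor for class 4 semaphorins in neural progenitors, had the highest level of the family per kb without Dox, and stood at 464 and 383 CPM against 458 and 443 CPM with Dox (log2 0.09, SE 0.14, adjusted p = 0.933). Plxnb1, the Sema4d receptor, ranged from 139 to 180 CPM with overlapping groups (log2 -0.17, adjusted p = 0.808). Plxnb3, a Sema5a receptor of oligodendrocytes, had 2 counts in the no Dox libraries together and 6 in the Dox libraries (ratio 1.69 in CPM, exact 95% counting interval 0.302 to 17.1), too few to compare. Plxnd1, the receptor of Sema3e, stood at 33.7 and 29.0 CPM in the no Dox libraries against 53.3 and 45.0 CPM in the Dox libraries, without overlap (log2 0.65, SE 0.15, unadjusted p = 0.00474, adjusted p = 0.151 in edgeR and 0.0277 in DESeq2). Plxnc1, the Sema7a receptor, was at 16.6 and 16.4 CPM with no Dox, against 13.5 and 9.79 CPM with Dox (log2 -0.50, SE 0.20, unadjusted p = 0.047, adjusted p = 0.476).

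Read as ligand and receptor pairs, the calls fell on both sides of the Sema3a system. Its ligand went from 1.99 and 2.75 CPM per kb to 9.46 and 10.1, and its binding subunit Nrp1 from 7.61 and 7.99 CPM per kb to 123 and 93.2. Of the 4 class A plexins that can complete this receptor, Plxna4 was called and the other 3 were not. In the Sema3f system edgeR called no gene, and DESeq2 called the ligand. The ligand was at 4.49 and 5.53 CPM per kb without Dox and 8.01 and 7.99 with it, Nrp2 between 4.16 and 6.86 CPM per kb and Plxna3 between 8.46 and 12.4. In the Sema6a system the ligand went from 8.87 and 11.9 CPM per kb to 21.0 and 23.4, while of its receptors Plxna4 rose and Plxna2 stayed between 5.12 and 8.07 CPM per kb.

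Sema3d, which also binds neuropilins, went from 2.38 and 2.46 CPM per kb to 19.2 and 16.5. Ligand and Nrp1 were both called there too, but this pair was not on the list of pairs. That list was itself chosen with earlier results of these data known. In the listed pairing of Sema3c with Nrp1, Nrp2 and Plxnd1, edgeR called only Nrp1. Sema3c was at 4.72 and 5.21 CPM per kb without Dox and 5.40 and 5.34 with it. Further pairs had no gene called by edgeR on either side. Sema3e was at or below 1.16 CPM per kb in all libraries beside a Plxnd1 level of 4.19 to 7.71, which DESeq2 called higher with Dox. Sema4c and Sema4g, at 28.7 to 35.5 and 18.5 to 23.9 CPM per kb, stood beside Plxnb2 at 58.9 to 71.5, the pairing with the highest levels on both sides. Sema4d was at 6.96 to 9.23 CPM per kb beside Plxnb1 at 16.1 to 20.8. Sema7a stood at 0.433 to 1.05 CPM per kb beside Plxnc1 at 1.34 to 2.27. Sema5b, at 5.42 to 17.0 CPM per kb, and Sema6d, at 12.35 to 20.0, stood beside Plxna1 at 27.2 to 44.6. DESeq2 called Sema5b lower with Dox. For Sema5a, at 0.879 to 2.20 CPM per kb, the receptor Plxnb3 had almost no counts. RNA levels from whole aggregates do not show whether a ligand and its receptor were in the same cells.

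The count files give each gene in numbered parts, mostly its exons, so the change could be followed along the transcript. In Nrp1 all 19 parts were higher with Dox, by log2 3.56 to 4.12. The first 2 parts cover Mir1903, a microRNA gene annotated at the 5′ end of Nrp1, and held few of its counts. In Sema3d all 18 parts were higher, by 2.07 to 4.09, in Sema6a all 19, by 0.55 to 1.41, and in Sema3a all 16 with a mean of at least 10 counts, by 0.99 to 2.78. The low end of Sema3a was its second part, with 9 and 2 counts without Dox. In Plxna4, 9 of 32 parts reached 10 counts and all 9 were higher (1.16 to 3.64). All 22 parts of Sema5b were lower with Dox, by -1.44 to -0.51. The test of unequal part use called 0 of the 27 members it could fit (each adjusted p = 1 by the Simes test), where 0.0173% of all genes were called. Spread that the parts of a gene share between libraries widens this test, and small differences between parts could be missed.

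**Figure D4:**
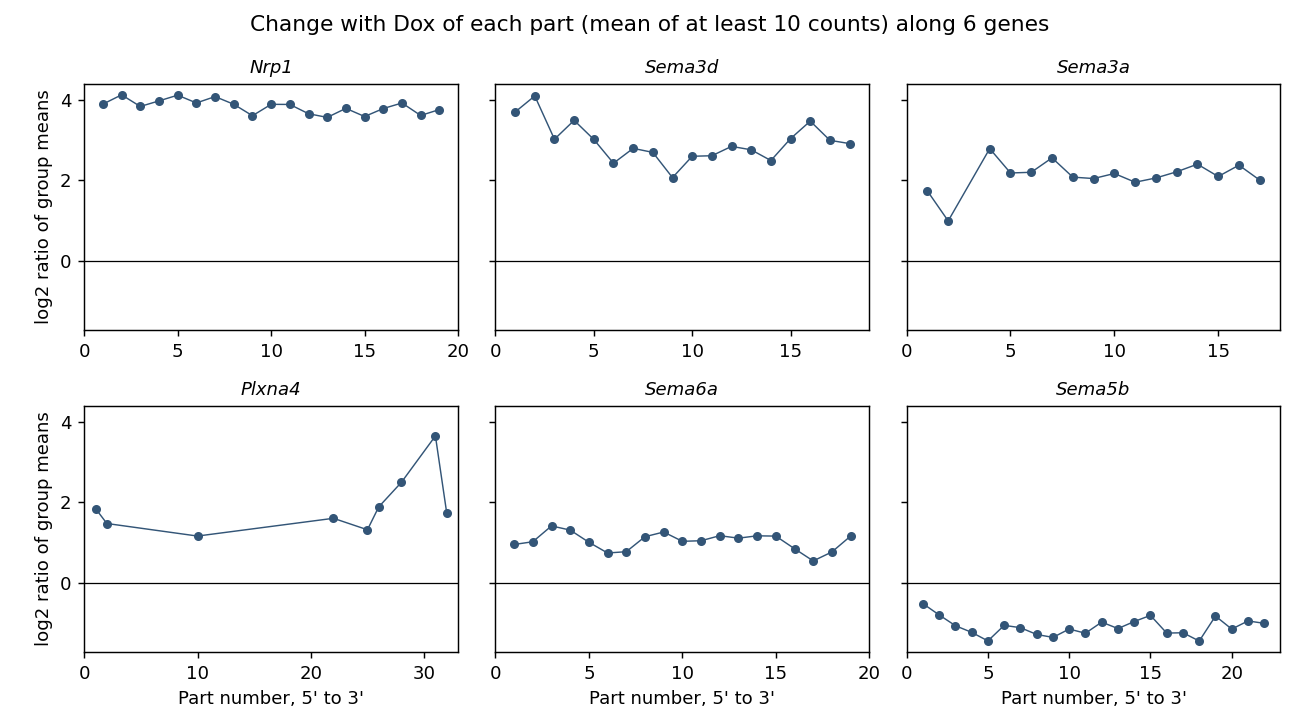
Log2 ratio of group mean CPM, Dox over no Dox, for each part with a mean of at least 10 counts a library, in 5′ to 3′ order along 6 genes. The 19 parts of Nrp1 lie between 3.56 and 4.12, and those of Sema5b between -1.44 and -0.51.

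How counts were spread along transcripts differed by replicate number. The share of a gene's counts in its 3′ terminal part had a median of 27.3% and 35.0% in no Dox replicates 1 and 2 and of 28.1% and 32.6% in Dox replicates 1 and 2, over 8905 genes. In the family it was larger in replicate 2 of both groups for 23 of 26 genes. For Plxna4 it was 41.3% and 77.0% without Dox and 49.1% and 64.2% with Dox, and for Nrp1 36.9% and 56.7% against 41.2% and 51.5%. All 8 tested plexins were lower in replicate 2 than in replicate 1 of both groups, while the 20 semaphorins were lower in replicate 2 of both for 8 and higher for 5. Neither these counts nor the 23 of 26 were made over all genes, so they cannot show a trait particular to plexins or to the family. Over all 14283 genes tested, deviations of same-numbered libraries from their group means correlated (Pearson r = 0.64). Each replicate number occurs once in each group. The part of this difference in the spread of the plexins was not tested.

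**Figure D5:**
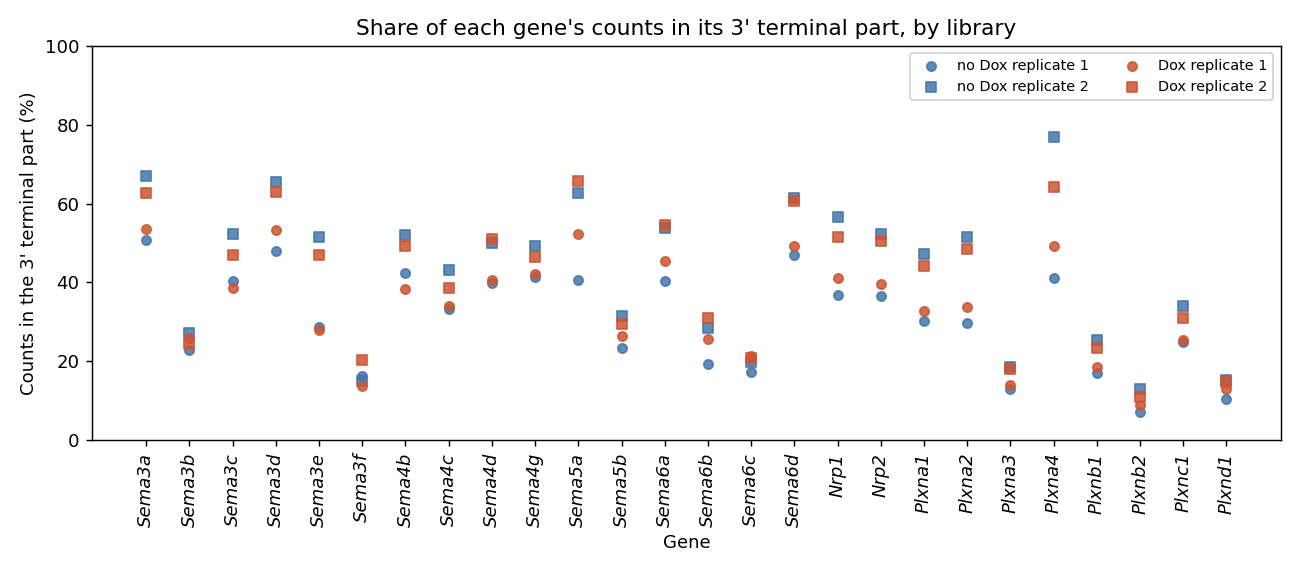
Percent of each gene's counts in its 3′ terminal part for the 26 genes with at least 5 parts and 100 counts in every library, with circles for replicate 1, squares for replicate 2, blue for no Dox and orange for Dox. Squares lie above circles of the same colour in 23 of the 26 genes, for example at 77.0% and 41.3% without Dox for Plxna4.

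Beyond ligands and receptors, 50 genes of co-receptors, effectors and partners were listed, of which 49 were tested, 2 rose and 0 fell in edgeR, or 4.08% higher against 1.23% of all genes. Without adjustment 10 passed 0.05 upwards and 2 downwards, against 6.26% and 4.02% of all genes, and DESeq2 called 4 higher and 0 lower, against 2.82% and 0.812%. Their median log2 fold change was 0.06, beside -0.01 over all genes. The first that rose was Met, the hepatocyte growth factor receptor that can associate with B plexins and acts on motor axons. It was at 20.3 and 28.8 CPM in the no Dox libraries against 73.7 and 59.5 CPM in the Dox libraries (log2 1.44, SE 0.21, adjusted p = 0.0402). The second was Plxdc2, a membrane protein with a plexin-like domain that is not a semaphorin receptor. It was at 9.43 and 9.47 CPM with no Dox, against 37.8 and 29.6 CPM with Dox (log2 1.83, SE 0.17, adjusted p = 0.00888).

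None of the effectors inside the cell was called by edgeR. Of the 5 CRMP genes (Dpysl2 to Dpysl5 and Crmp1), cytoplasmic relays of Sema3a, 0 were called. Dpysl2 (CRMP2) was at 129 and 158 CPM in the no Dox libraries against 141 and 139 CPM in the Dox libraries, and Dpysl5 at 155 and 96.3 against 124 and 75.9. Dpysl4 had both Dox libraries below both others, at 82.2 and 74.0 CPM against 65.7 and 54.5 CPM (log2 -0.38, SE 0.14, unadjusted p = 0.0328, adjusted p = 0.406). Mical2, an actin-oxidising enzyme, was at 59.3 and 83.2 CPM with no Dox, against 96.1 and 120 CPM with Dox (log2 0.60, SE 0.20, adjusted p = 0.334). Rac1, a small GTPase of the cytoskeleton, and Rock2, a kinase of the cytoskeleton, had log2 fold changes of -0.05 and -0.003. Among cell adhesion co-receptors, Cntn2 (TAG-1), found on motor and commissural axons, was at 75.7 and 39.3 CPM in the no Dox libraries against 141 and 116 CPM in the Dox libraries (log2 1.16, SE 0.30, adjusted p = 0.212), and L1cam, a co-receptor for Sema3a, between 10.9 and 18.8 CPM with overlap.

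Ligands and receptors that share Nrp1 with the semaphorins were not called by edgeR. Vegfa, the VEGF that binds Nrp1, stood at 207 and 199 CPM with no Dox, against 209 and 233 CPM with Dox (log2 0.12, SE 0.12, adjusted p = 0.85). The VEGF ligands Vegfb and Vegfc lay lower in both Dox libraries. Vegfb was at 66.2 and 60.4 CPM against 55.6 and 55.4 CPM with Dox (log2 -0.19, SE 0.11, adjusted p = 0.687). Vegfc was at 20.0 and 18.6 CPM against 14.2 and 13.9 CPM with Dox (log2 -0.46, SE 0.15, unadjusted p = 0.0194, adjusted p = 0.316). Pgf, a VEGF relative, was at 1.65 and 2.65 CPM in the no Dox libraries against 6.18 and 8.88 CPM in the Dox libraries (log2 1.81, SE 0.33, adjusted p = 0.0752). Its receptor Flt1 was at 368 and 185 CPM with no Dox, against 212 and 138 CPM with Dox (adjusted p = 0.644), with overlapping groups. Kdr, the main signalling VEGF receptor, was low, at 2.31 and 1.88 CPM against 3.34 and 3.66 CPM with Dox (log2 0.74, SE 0.26, unadjusted p = 0.0276, adjusted p = 0.37). Flt4, the receptor of lymphatic VEGFs, was at 3.74 and 3.88 CPM against 5.16 and 7.32 CPM with Dox (log2 0.72, SE 0.25, unadjusted p = 0.03, adjusted p = 0.387).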

How the data were processed

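Each of the 4 libraries has 1 table of whole-number counts deposited by the authors, for 208825 numbered parts of RefSeq gene units. Libraries were made with the Illumina TruSeq RNA protocol, per the labels' protocols. TopHat and the mouse build mm9 are named in the submitters' processing notes. No source used here gives the counting tool, its annotation or its use of strand, so overlapping genes, antisense ones included, are uncertain. A read across 2 parts may be counted in both.

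Summing parts gave 21822 gene units. Names came from RefSeq (GRCm38.p6) and GENCODE M21 by transcript identifier, with 97.1% of 27601 identifiers matched. This build is later than mm9, so lengths and part order may differ from those counted. Of 31 members, 24 had as many annotated pieces as parts. The unit of Nrp1 also holds Mir1903. The 4 rows that name no gene were left out of totals: reads outside genes were 13.6% to 15.8% of counts and ambiguous reads 0.41% to 0.52%.

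Genes were tested with edgeR 4.0.16 (R 4.3.3), by the quasi-likelihood test with TMM scaling, filterByExpr defaults and p-values adjusted by Benjamini-Hochberg over 14283 genes, all 4 libraries and no block. The biological coefficient of variation was 0.148. A chi-square test divided by its degrees of freedom gave 37.2 for the no Dox pair and 34.6 for the Dox pair, so replicates differed beyond sampling noise. Part use was tested with edgeR on 11530 genes, with parts of a mean of at least 10 counts. DESeq2 1.42.0 and limma-voom (limma 3.58.1) were alternatives. Scripts were tested on simulated data. Counting intervals are exact and leave out replicate spread.

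Members, lists and the pairs described were chosen with earlier results of these data known. All members are accounted for. Those with an adjusted or unadjusted p under 0.05, and the most abundant of each class, are given in full, with the called pathway genes. Other pathway genes and neighbours were named after their values were seen.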

Additional observations from a re-analysis of the deposited data

How the results depend on the processing

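Over 12 alternatives, 57 of 60 values of the 5 called members kept their direction and their call (20 of the 60 are from fits without one library, where 1 group has a single library, assumed to vary like the other pair): Nrp1 ranged from log2 3.58 to 4.001, Sema3d from 2.77 to 3.01, Sema3a from 1.84 to 2.30, Plxna4 from 1.52 to 2.02 and Sema6a from 0.91 to 1.32. The 3 lost calls were Sema6a with the largest part as gene count or without the 3′ terminal part, and Plxna4 without the 3′ terminal part. Of the other members, 10 were called under at least 1 alternative. Without one library, 5 to 7 members were higher and 0 to 1 lower, 276 to 283 of all genes were higher and 22 to 124 lower (84 without no Dox replicate 2, 124 without Dox replicate 1), 3 to 5 genes of the pathway list were higher, and the median was -0.091 to 0.38 over receptors and 0.20 to 0.43 over ligands. The cause was not tested. DESeq2 called 8 members higher and 1 lower, 403 genes higher and 116 lower, and 4 genes of the pathway list higher. With library totals only, 16 genes were lower, and with no filter 295 were higher and 46 lower. With the largest part as gene count, 14 genes were lower and 1 of the pathway list was higher. Without the 3′ terminal part, chosen after seeing the data, 12627 genes were tested, of which 3 members, 77 genes and 1 gene of the pathway list were higher and 0 genes lower.

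A replicate block in edgeR gave 13 members called higher and 2 lower (Sema5b and Plxnc1), 1047 genes higher and 869 lower, and 10 pathway genes higher and 6 lower. No label says that a number marks a shared batch. Deviations of same-numbered libraries from their group means correlated across 14283 genes (Pearson r = 0.64), a hint from the data, not the design. Parts with a mean of at least 30 counts gave 0 members with unequal part use, as did the main test. Depth limits Plxnb3 and Sema3g, and in Plxna4 all parts but the last.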
